A study of Drosophila melanogaster with 8 samples.

Results

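The glutathione S-transferase (Gst) and UDP-glycosyltransferase (Ugt) genes of Drosophila melanogaster were followed on 8 spotted cDNA arrays of larval RNA. Members were all genes whose symbol in the probe table starts with Gst or Ugt, and spots with several symbols were left out. This gave 35 of the 6793 named genes, of which 23 were Gst genes and 12 were Ugt genes. The Gst genes comprised 10 of the Delta class (GstD), 7 Epsilon (GstE), 2 Omega (GstO), 2 Theta (GstT) and 2 Zeta (GstZ) genes. No spot of the Sigma class was among them. The RefSeq gene table of Release 6 names 35 genes of each family, so 23 of 35 Gst and 12 of 35 Ugt genes were analysed here.

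Both families encode enzymes that make foreign and endogenous compounds easier to excrete. Glutathione S-transferases join the thiol of glutathione to electrophilic compounds, and the Delta and Epsilon classes are expanded in insects and known for insecticide and plant toxin metabolism and for the defence against products of lipid peroxidation. UDP-glycosyltransferases transfer a sugar, in insects mainly glucose, from a UDP-sugar to small lipophilic molecules. Genes of both families lie in tandem clusters of related copies, and many are active in the fat body, midgut and Malpighian tubules of the larva.

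The arrays were read in 2 colours. Per the labels, channel 1 held RNA of untreated control larvae of the third instar and channel 2 held RNA of untreated larvae of the same background carrying DGCalpha1[3], an allele of a gene for a soluble guanylyl cyclase subunit. There were 4 arrays in the Rover background and 4 in the sitter background, natural variants of larval foraging. The labels do not state the number of larvae per extract, whether the arrays of a background had separate extracts, or how many mutant lines were used, so the p-values cover array-to-array spread alone, and that spread may be technical. The spots of the targeted gene, Gycalpha99B, ran from -0.96 to 0.45 and were negative on 5 of 8 arrays, with means of -0.26 in Rover and -0.27 in sitter that did not pass (limma adjusted p = 0.396 and 0.451). These ratios therefore give no check of the labels.

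The deposited values are log ratios of the 2 channels, taken here as log2 because the base is not stated. The channel in the numerator is not stated either, so a ratio is called positive or negative with no statement on which genotype had more RNA. The arrays were not centred on 0: the median over all spots lay between -0.47 and -0.10, and 22.4% to 36.3% of spots were positive. Each test was therefore run on the deposited ratios and again after centring each array on its median over all spots. Ratios alone give no expression level, so neither the larval tissue nor the brightness of a member could be checked. RNA of one gene can hybridise to the cDNA spot of a close copy, so the ratios of near-identical paralogs, such as neighbouring GstD genes, are uncertain and cannot be fully told apart.

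As deposited, more members had a called negative than a called positive ratio in either background. In Rover 14 of 35 members were negative and 1 was positive by limma (adjusted p under 0.05), beside 45% of all 19325 features called negative and 1.7% positive (46.7% in either direction). In sitter 11 members were negative and 0 positive, beside 23% and 0.724% of all features (23.7%). Over both backgrounds 15 members were negative and 3 positive, beside 46.8% and 2.06% (48.8%). The shares of negative members were thus close to those of all features, and the median of the members' mean ratios was -0.29 in Rover and -0.14 in sitter, beside -0.39 and -0.21 over all features.

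After centring the balance of signs changed. In Rover 12 members were then called positive and 9 negative, beside 22.7% and 25% of all features (47.7% in either direction), and in sitter 2 were positive and 3 negative, beside 2.28% and 11.5% (13.8%). Over both backgrounds 14 were positive and 10 negative, beside 25.6% and 33.3% (58.8%). Ratios called with the same sign both ways are those least tied to the array offset, and over both backgrounds these were the 10 negative members GstD5, GstD6, GstE1, GstE14, GstO1, Ugt301D1, Ugt317A1, Ugt35D1, Ugt36F1 and Ugt37A1 and the 3 positive members GstE3, GstT3 and Ugt35A1. The share of all features called with the same sign both ways is not given here. These counts therefore do not show that the members differ from other features. For GstD5 and GstE1, each printed as 2 spot pairs, the centred call over both held in 1 pair only.

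**Figure D1:**
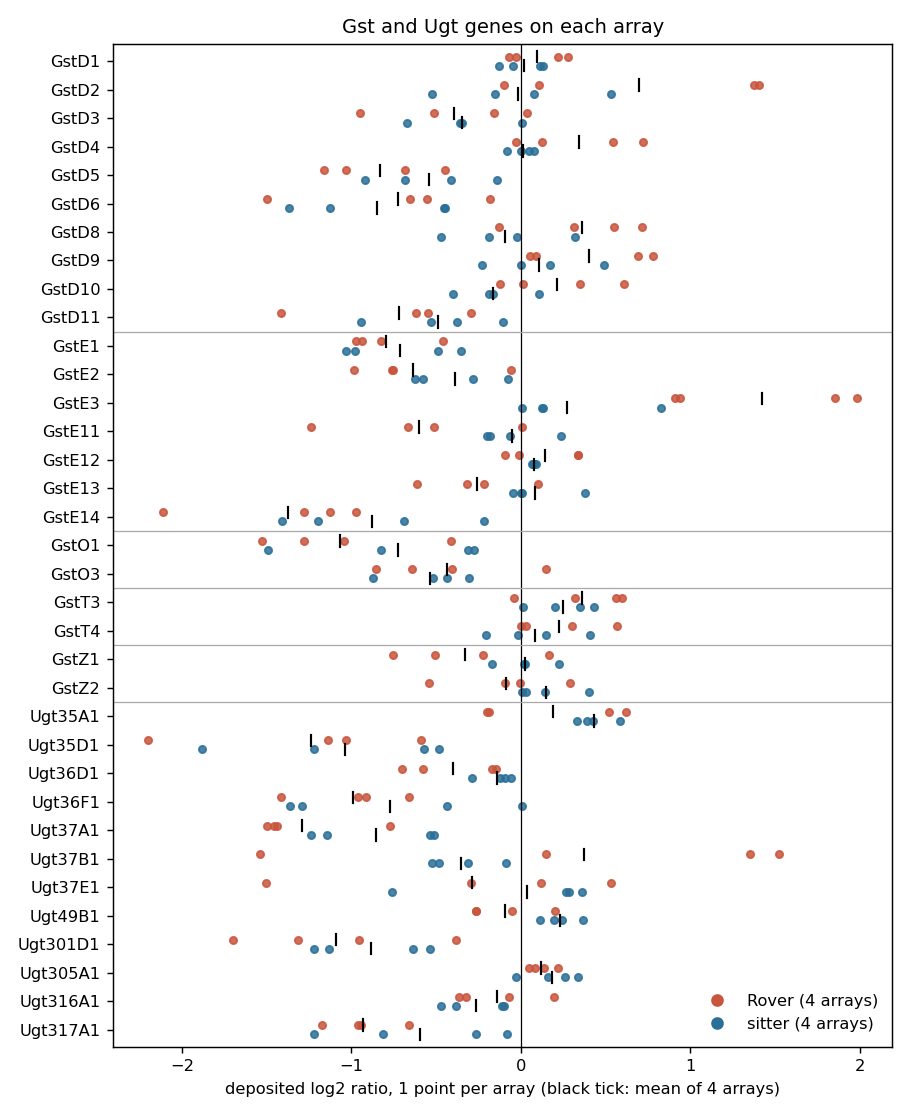
Deposited log2 ratio (x axis) of each of the 35 members (y axis, grouped by class), with 1 point for each of 4 Rover and 4 sitter arrays and a black tick at the mean of each background. GstE3 alone is positive on all 8 arrays, and 12 members, among them GstE14, GstO1 and Ugt37A1, are negative on all 8.

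Members that kept one sign over all arrays were mostly negative, as were all features that did so, and the negative share was close to that of all features. Negative on all 8 arrays were 12 members, beside 32.8% of all features, and positive on all 8 was 1 member, GstE3, beside 1.17%. The 12 were GstD5, GstD6, GstD11, GstE1, GstE2, GstE14, GstO1, Ugt301D1, Ugt317A1, Ugt35D1, Ugt36D1 and Ugt37A1.

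The Delta class genes fell on both sides of 0, and adjacent copies had opposite signs. In the RefSeq annotation, 10 GstD genes stand in one unbroken row, from GstD10 through GstD9, GstD1, GstD2, GstD3, GstD4, GstD5, GstD6 and GstD7 to GstD8, and 9 of these were measured. GstD11 lies outside that row. As deposited, 3 of the 10 measured GstD genes were called negative in Rover (GstD5, GstD6 and GstD11), 0 positive, and 7 did not pass. Of all features 45% were called negative there and 1.7% positive. After centring 6 GstD genes were positive (GstD1, GstD2, GstD4, GstD8, GstD9 and GstD10), 1 was negative (GstD5) and 3 did not pass. The centred shares of all features in Rover were 22.7% positive and 25% negative.

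GstD1, the most studied Delta enzyme and known for DDT metabolism, had ratios close to 0 on every array. Its Rover arrays gave 0.22, 0.28, -0.07 and -0.03 and its sitter arrays -0.13, -0.05, 0.11 and 0.13. The backgrounds overlapped, with means of 0.10 ± 0.17 (SD, n = 4) and 0.02 ± 0.13 (SD, n = 4) and limma adjusted p of 0.498 and 0.937. After centring GstD1 was called positive in Rover (adjusted p = 0.0114).

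GstD2, the neighbour of GstD1, had the largest positive Rover mean of the class. The values were 1.41, 1.38, 0.11 and -0.10 in Rover and -0.52, -0.15, 0.54 and 0.08 in sitter. Rover 1 and Rover 2 stood above every other array, and the remaining Rover arrays lay within the sitter range. The Rover mean of 0.70 ± 0.81 (SD, n = 4) did not pass as deposited (limma adjusted p = 0.0681) and passed after centring (0.014).

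Other Delta genes were also highest on Rover 1 and Rover 2. GstD9 was at 0.78 and 0.69 on Rover 1 and Rover 2 and at 0.09 and 0.05 on Rover 3 and Rover 4. GstD4 gave 0.72 and 0.54 against 0.13 and -0.03, GstD8 0.71 and 0.55 against 0.31 and -0.13, and GstD10 0.35 and 0.61 against -0.13 and 0.01. The Rover means of these genes, 0.40 for GstD9, 0.34 for GstD4, 0.36 for GstD8 and 0.21 for GstD10, had limma adjusted p of 0.0738, 0.0644, 0.107 and 0.262 as deposited and 0.00834, 0.00665, 0.0112 and 0.0108 after centring. In sitter none of the 4 passed either way, and their means ran from -0.16 for GstD10 to 0.11 for GstD9.

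GstD5, GstD6 and GstD11 were negative on all 8 arrays. GstD5 gave -0.45, -0.68, -1.16 and -1.03 in Rover and -0.14, -0.92, -0.68 and -0.41 in sitter. Its means were -0.83 ± 0.33 (SD, n = 4; limma adjusted p = 0.00396) and -0.54 ± 0.34 (SD, n = 4; 0.0407). GstD6 had -0.55, -0.66, -1.50 and -0.18 in Rover and -0.45, -1.13, -1.37 and -0.45 in sitter. The GstD6 means were -0.72 (adjusted p = 0.0269) and -0.85 (0.0305), and over both backgrounds it stood at -0.79 (0.00305). For GstD11 Rover 2 was lowest at -1.42, the other arrays lay between -0.94 and -0.11, and its Rover mean of -0.72 was called (0.0138) whereas the sitter mean of -0.49 was not (0.0956). In Rover the call of GstD11 was lost when Rover replicate 2 was left out (adjusted p = 0.0542), and that of GstD6 without Rover replicate 2 or 3 (up to 0.115), with print lot as a block (0.0687) or with print lot B alone (0.0547). After centring neither GstD6 (0.186) nor GstD11 (0.137) passed in Rover. The sitter calls of GstD5 and GstD6 were lost after centring (0.0878 and 0.0571) and with print lot as a block (0.0775 and 0.0726), and in 5 and 2 of the 8 fits that left out an array.

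For 5 members the arrays carried 4 spots in 2 separate pairs of neighbours, and the pairs of GstD3 and GstD5 differed. The first pair of GstD3 gave 0.34, 0.54, -0.02 and -0.15 in Rover and -0.39, -0.05, 0.18 and 0.34 in sitter. Its second pair gave -0.27, -0.86, -1.88 and -0.88 in Rover and -0.31, -1.30, -0.90 and -0.32 in sitter. The second pair was below the first on every array except sitter 1. With pairs tested as separate features, an alternative chosen after seeing the data, the first pair had a mean over both backgrounds of 0.10 (limma adjusted p = 0.505) and the second of -0.84 (0.00366). The averaged GstD3 ratio of -0.37 over both backgrounds (0.0299) is therefore a mean of spots that disagree, and it did not pass after centring (0.463). The pairs tested apart were then both called, the first positive (0.0149) and the second negative (0.0135).

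GstD5 showed a smaller split. Its first pair was at 0.12 and -0.08 on Rover 1 and Rover 2 and at -0.75 and -0.98 on Rover 3 and Rover 4, and its second pair at -1.02, -1.28, -1.57 and -1.08. The first pair had a Rover mean of -0.42 (limma adjusted p = 0.146) and the second of -1.24 (0.00193). The call of GstD5 in Rover thus held in 1 of its 2 spot pairs. With centring the first pair did not pass in Rover (0.851) or over both (0.419), and the second did (0.00569 and 0.00166). For GstE1 both pairs were called in Rover, at -1.02 (0.00233) and -0.57 (0.0132), and in sitter the first was called at -1.02 (0.0139) and the second was not at -0.41 (0.0809). After centring the Rover call of GstE1 held in the first pair (0.0107) and not in the second (0.233). The first pair of GstD4 was called in Rover at 0.47 (0.0451) and the second was not at 0.21 (0.172), and neither pair of GstD1 passed as deposited. After centring both pairs of GstD1 were positive in Rover (0.0155 and 0.00984), as were both of GstD4 (0.00743 and 0.00703). The clone behind each spot was not analysed here. Over the 40 pairs of the members, neighbouring spots differed on an array by a median of 0.18.

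**Figure D2:**
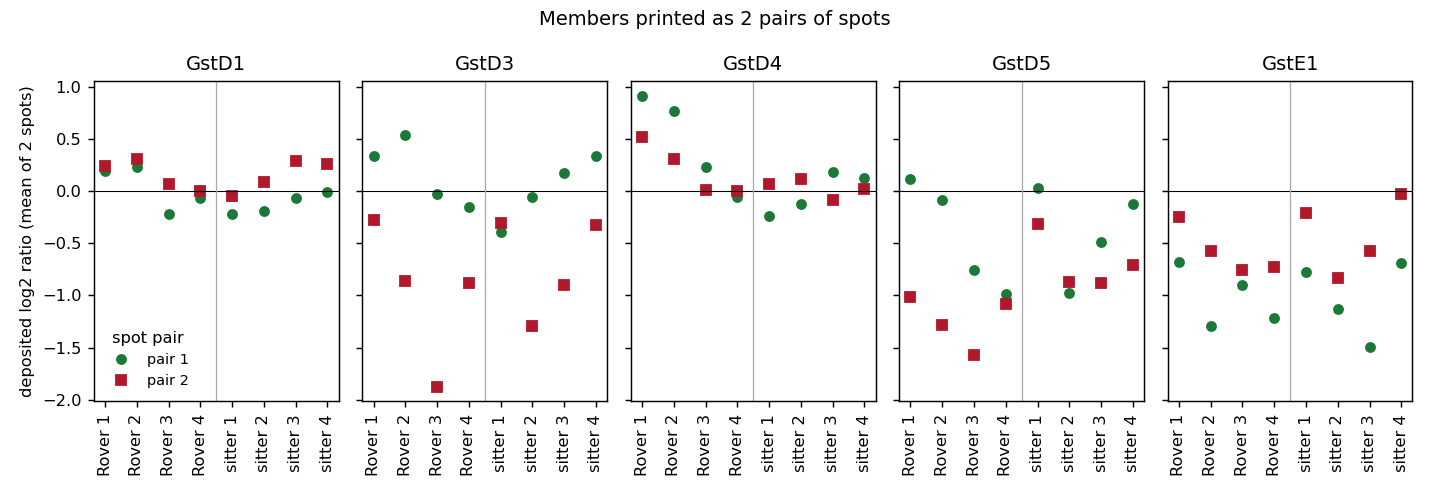
Log2 ratio (y axis, mean of 2 neighbouring spots) of the 5 members printed as 2 spot pairs, on each of the 8 arrays (x axis), with circles for the first pair and squares for the second. The second GstD3 pair reaches -1.88 on Rover 3, where the first stands at -0.02, while both pairs of GstD1 stay between -0.22 and 0.31.

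Epsilon class genes held both extremes of the family. GstE3 had the largest positive Rover mean of the 35 members and GstE14 the largest negative one. In Rover 4 of the 7 GstE genes were called negative (GstE1, GstE2, GstE11 and GstE14), 1 positive (GstE3) and 2 did not pass, and in sitter 2 were negative (GstE1 and GstE14) and 5 did not pass. Over all features 45% were called negative and 1.7% positive in Rover, and 23% and 0.724% in sitter. In the RefSeq table GstE1, GstE2 and GstE3 follow each other inside a row of 10 GstE genes. Of those 10, 3 were measured.

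GstE3 was positive on all 8 arrays. Its Rover arrays gave 1.85, 1.98, 0.94 and 0.91, and its sitter arrays 0.01, 0.12, 0.83 and 0.13. Every Rover array lay above every sitter array, though sitter 3 came close to Rover 3 and Rover 4. The Rover mean was 1.42 ± 0.58 (SD, n = 4; limma adjusted p = 0.00228) and the sitter mean 0.27 ± 0.37 (SD, n = 4; 0.414). The Rover call held after centring (0.00424) and in all 8 fits that left out an array, whose adjusted p ran from 0.00267 to 0.0126.

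The genes beside GstE3 had negative ratios. GstE1, known from work with the purified enzyme for conjugating the lipid peroxidation product hydroxynonenal, gave -0.46, -0.93, -0.83 and -0.97 in Rover and -0.49, -0.98, -1.03 and -0.35 in sitter. Its means were -0.80 ± 0.23 (SD, n = 4; limma adjusted p = 0.00347) and -0.71 ± 0.34 (SD, n = 4; 0.0181), and both calls held after centring (0.0261 and 0.0331). GstE2 gave -0.06, -0.76, -0.98 and -0.75 in Rover and -0.28, -0.62, -0.58 and -0.08 in sitter. Its Rover mean of -0.64 was called (0.011) and its sitter mean of -0.39 was not (0.11). Its Rover call was lost after centring (0.135) and when Rover replicate 3 was left out (0.0515).

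GstE14, also named noppera-bo, is needed in the ecdysone-producing gland for steroid hormone synthesis. Its values were -2.11, -1.12, -1.28 and -0.97 in Rover and -1.20, -1.41, -0.69 and -0.22 in sitter. Rover 1 was lowest and sitter 4 highest, and the backgrounds overlapped. The Rover mean was -1.37 ± 0.51 (SD, n = 4; limma adjusted p = 0.00273) and the sitter mean -0.88 ± 0.53 (SD, n = 4; 0.0286). The Rover call held after centring (0.0145) and was lost after centring with scaling (0.059). The sitter call was lost after centring (0.0755) and in 3 of the 8 fits that left out an array, those without sitter replicate 1, 2 or 3.

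GstE11 gave 0.01, -0.66, -1.24 and -0.51 in Rover and -0.20, -0.18, -0.06 and 0.24 in sitter. Its Rover mean of -0.60 (limma adjusted p = 0.0224) was called as deposited and not after centring (0.263), with print lot as a block (0.0573) or without Rover replicate 2, 3 or 4 (up to 0.0887). GstE12 was steady in sitter, between 0.06 and 0.09, and spanned -0.10 to 0.34 in Rover. GstE13 spanned -0.61 to 0.10 in Rover and -0.05 to 0.38 in sitter. Neither GstE12 nor GstE13 passed as deposited, and GstE12 was called positive in Rover after centring (0.012).

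Both Omega genes had negative means. Omega enzymes act as thiol transferases and reductases and not mainly as conjugating enzymes. GstO1 gave -0.41, -1.28, -1.53 and -1.05 in Rover and -0.31, -1.49, -0.83 and -0.27 in sitter, with means of -1.07 ± 0.48 (SD, n = 4; limma adjusted p = 0.00585) and -0.73 ± 0.57 (SD, n = 4; 0.0499). The sitter call of GstO1 held in 1 of the 8 fits that left out a single array and not after centring (0.0891). GstO3 gave 0.15, -0.41, -0.64 and -0.85 in Rover and -0.44, -0.88, -0.52 and -0.30 in sitter. Its sitter mean of -0.53 was called (0.0475) and its Rover mean of -0.44 was not (0.0577). With the replicate number as a block the sitter value of GstO3 did not pass (0.0505), nor after centring (0.104), and it held in 2 of the 8 fits that left out an array.

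The Theta genes leaned to positive ratios and the Zeta genes lay near 0. GstT3 gave 0.32, 0.59, 0.56 and -0.04 in Rover and 0.43, 0.35, 0.20 and 0.01 in sitter. Over both backgrounds GstT3 stood at 0.30 (limma adjusted p = 0.0226), a call that held after centring (0.00233) and in 4 of the 8 fits with an array left out, and that did not hold with print lot B alone (0.0879) or with the arrays of the lower Cy5 gain alone (0.0939). GstT4 ran from -0.20 to 0.57 over the 8 arrays and did not pass as deposited. GstZ1 and GstZ2 stand side by side in the genome. Zeta enzymes isomerise maleylacetoacetate in the breakdown of tyrosine. GstZ1 ran from -0.76 to 0.23 and GstZ2 from -0.54 to 0.40, and neither passed as deposited in any comparison. After centring GstT4 was called positive in Rover (0.0131) and over both (0.00706), and GstZ2 over both (0.0177), while GstZ1 did not pass.

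In the Ugt family 6 of 12 genes were called negative in Rover (Ugt301D1, Ugt317A1, Ugt35D1, Ugt36D1, Ugt36F1 and Ugt37A1), 0 positive, and 6 did not pass. Over all features 45% were called negative in Rover, a share close to that of the Ugt genes. In sitter 5 were negative, the same genes without Ugt36D1, and 7 did not pass, beside 23% of all features called negative. After centring these 5 remained negative in Rover (with scaling added, Ugt36F1 did not pass, at 0.0711), where Ugt305A1 and Ugt35A1 were positive, and Ugt301D1 and Ugt37A1 remained negative in sitter, where Ugt35A1 and Ugt49B1 were positive. The centred shares of all features were 22.7% positive and 25% negative in Rover, and 2.28% and 11.5% in sitter. The members encode membrane-bound glycosyltransferases of the endoplasmic reticulum whose substrates in the larva are mostly not known.

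Ugt37A1 had the smallest adjusted p of the members over both backgrounds. Its arrays gave -0.77, -1.46, -1.50 and -1.44 in Rover and -0.51, -1.24, -1.14 and -0.53 in sitter. The means were -1.29 ± 0.35 (SD, n = 4; limma adjusted p = 0.00198) and -0.86 ± 0.39 (SD, n = 4; 0.0177), and both held after centring (0.00644 and 0.0288). The mean over both was -1.08 (0.000521). Its 2 spots differed on Rover 4 by 1.43, the widest gap between neighbouring spots of any member, at -0.73 and -2.15.

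Ugt35D1 gave -0.59, -2.20, -1.14 and -1.03 in Rover and -0.48, -1.88, -1.22 and -0.57 in sitter. In each background replicate 2 was lowest and replicate 1 highest. Its means were -1.24 ± 0.68 (SD, n = 4; limma adjusted p = 0.00738) and -1.04 ± 0.65 (SD, n = 4; 0.0327). The sitter call of Ugt35D1 did not hold after centring (0.0585) or with print lot as a block (0.07).

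Ugt301D1 gave -0.38, -0.95, -1.70 and -1.32 in Rover and -0.64, -1.22, -1.13 and -0.54 in sitter, with means of -1.09 ± 0.56 (SD, n = 4; limma adjusted p = 0.00385) and -0.88 ± 0.34 (SD, n = 4; 0.0226). Ugt317A1 gave -0.66, -0.94, -1.18 and -0.96 in Rover and -0.08, -0.81, -1.22 and -0.27 in sitter. Its Rover mean was -0.93 ± 0.21 (SD, n = 4; 0.00419), with the arrays close together, and its sitter mean -0.60 ± 0.52 (SD, n = 4; 0.0455). The sitter call of Ugt317A1 did not hold after centring (0.0889), with print lot as a block (0.0992) or in 6 of the 8 fits that left out an array, whereas both calls of Ugt301D1 held after centring (0.0146 and 0.0362).

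Ugt36F1 and Ugt36D1 are neighbours in the RefSeq table and differed in size. Ugt36F1 gave -0.66, -0.96, -0.92 and -1.41 in Rover and -0.44, -1.36, -1.29 and 0.01 in sitter, and its means of -0.99 and -0.77 were called (limma adjusted p = 0.00771 and 0.041). Its sitter call did not hold after centring (0.0729), with print lot as a block (0.0992) or with print lot B alone (0.0544). Ugt36D1 was nearer 0, at -0.17, -0.70, -0.15 and -0.58 in Rover and -0.06, -0.12, -0.29 and -0.10 in sitter. Its Rover mean of -0.40 was called as deposited (0.0239) and stood at -0.02 after centring (0.891), so its sign rests on the array offset. Without Rover replicate 2 or 4 its Rover value did not pass (up to 0.106), nor with print lot as a block (0.0589).

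Ugt35A1 was the Ugt gene with a called positive ratio over both backgrounds as deposited. It gave 0.62, 0.52, -0.20 and -0.19 in Rover and 0.33, 0.39, 0.58 and 0.42 in sitter, so that all 4 sitter arrays were positive and Rover 1 and Rover 2 stood above Rover 3 and Rover 4. The mean over both was 0.31 (limma adjusted p = 0.0445), and it passed after centring (0.0026). As deposited it did not pass with the replicate number as a block (0.0672), with print lot as a block (0.0512), with print lot B alone (0.13), with the arrays of the lower Cy5 gain alone (0.194), or in 6 of the 8 fits that left out an array.

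Ugt37B1 and Ugt37E1 had the widest spread between Rover arrays among the members. Ugt37B1 gave 1.35, 1.52, -1.54 and 0.15 in Rover, a mean of 0.37 ± 1.41 (SD, n = 4; limma adjusted p = 0.518), and stayed between -0.53 and -0.09 in sitter. Its 2 spots gave 1.54 and 1.17 on Rover 1, 1.44 and 1.60 on Rover 2 and -1.62 and -1.46 on Rover 3. Ugt37E1 gave 0.12, 0.53, -1.50 and -0.29 in Rover and -0.76, 0.27, 0.36 and 0.28 in sitter, with means of -0.29 and 0.04. The remaining Ugt genes lay near 0 as deposited, with Ugt305A1 between -0.03 and 0.34, Ugt316A1 between -0.47 and 0.20 and Ugt49B1 between -0.27 and 0.37. Over both backgrounds Ugt305A1 and Ugt49B1 were called positive after centring (limma adjusted p = 0.00362 and 0.00516).

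Set beside each other, the Gst genes had a higher median ratio than the Ugt genes on all 8 arrays. The gap was smallest on sitter 1, at 0.08, and widest on Rover 2, at 0.68. The array medians of the 23 Gst genes averaged -0.12 in Rover (SD 0.29, n = 4) and -0.09 in sitter (SD 0.13, n = 4), and those of the 12 Ugt genes -0.56 ± 0.33 (SD, n = 4) and -0.30 ± 0.17 (SD, n = 4). Over all features the same averages were -0.41 and -0.20. The median of the mean ratios per gene was -0.26 in Rover and -0.05 in sitter for Gst genes. For Ugt genes it was -0.34 and -0.31, beside -0.39 and -0.21 over all features. By that measure the Ugt genes lay above all features in Rover, and the gap between the families there was smaller. These are descriptions of fixed groups of genes, with no test of the difference.

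Single Gst classes differed from the Ugt genes in different directions. The Delta median was above the Ugt median on 8 of 8 arrays, by 0.05 to 0.93, and so were the Theta median, by 0.30 to 1.32, and the Zeta median, by 0.01 to 0.74. The Epsilon median was above on 6 and below on 2 arrays, and the Omega median was below on 7 and above on 1. Delta and Epsilon parted in Rover, where the Delta median was higher on all 4 arrays by 0.34 to 1.07. In sitter the Delta median was lower on 3 arrays, by up to 0.11 on sitter 2 (-0.11), and higher on 1.

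**Figure D3:**
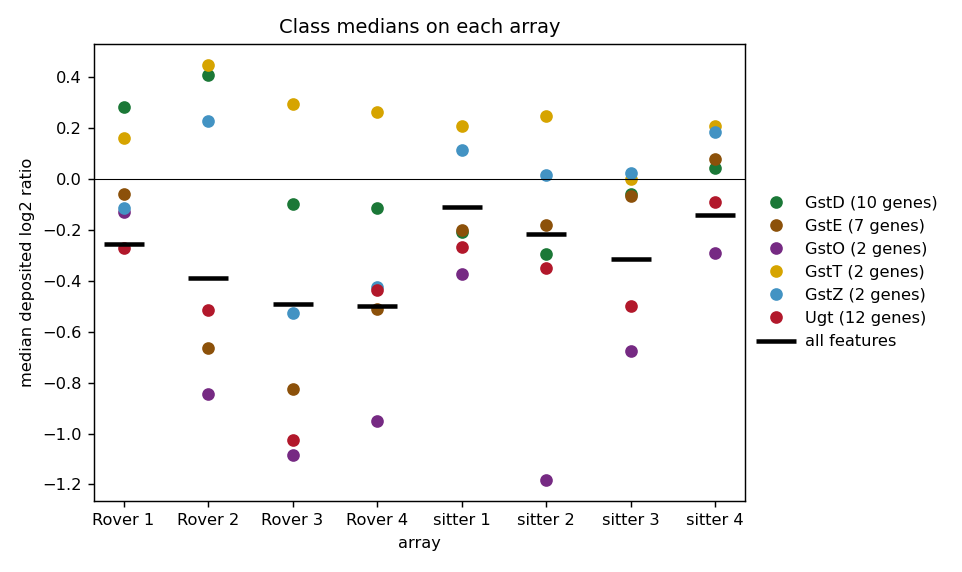
Median deposited log2 ratio (y axis) of each class on each of the 8 arrays (x axis), with a black bar for the median of all features. The Ugt median is below the Delta, Theta and Zeta medians on all 8 arrays, and the Delta median is at 0.28 and 0.41 on Rover 1 and Rover 2 and between -0.29 and 0.04 on the other arrays.

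Rover and sitter were compared directly by the difference of their mean ratios. limma called 0 of the 35 members in this difference, beside 0.0466% of all features (0.0207% positive and 0.0259% negative), and again 0 after centring, beside 0.0776% (0.0621% and 0.0155%). At an unadjusted p under 0.05 there was 1 member as deposited, GstE3, beside 9.4% of all features. After centring there were 6 (GstD2, GstD4, GstD8, GstD9, GstD10 and GstE3), beside 8.89%. GstE3 differed by 1.15 ± 0.31 (SE), with a 95% interval of 0.46 to 1.84 and an adjusted p of 0.33 as deposited and 0.184 after centring. It was also the 1 member whose Rover and sitter arrays did not overlap, beside 5.94% of all features. After centring GstD4, GstD10 and GstE3 did not overlap, beside 7.58% of features.

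As deposited the intervals of the other 34 members included 0. After centring the intervals of 6 members left out 0, with 0.70 to 2.01 for GstE3, 0.08 to 1.75 for GstD2, 0.15 to 0.91 for GstD4, 0.13 to 1.18 for GstD8, 0.02 to 0.98 for GstD9 and 0.17 to 0.99 for GstD10. As deposited, the next largest positive differences were those of Ugt37B1, at 0.72 (95% interval -0.62 to 2.07), and GstD2, at 0.71 (-0.18 to 1.60). The largest negative difference was that of GstE11, at -0.55 (-1.13 to 0.03), followed by GstE14 at -0.49 (-1.23 to 0.24) and Ugt37A1 at -0.44 (-0.99 to 0.12). The narrowest intervals still allowed moderate differences, such as -0.26 to 0.42 for GstD1 and -0.38 to 0.26 for Ugt305A1. A missed threshold therefore does not show that the backgrounds were alike.

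The sign of the difference was not spread evenly over the classes. It was positive for 7 of 10 Delta genes and 2 of 12 Ugt genes, beside 28.8% of all features. After centring it was positive for 8 of 10 Delta and 4 of 12 Ugt genes, beside 57.1% of all features. The median difference as deposited was 0.21 for Delta, -0.25 for Epsilon and -0.23 for Ugt genes, beside -0.15 over all features. After centring it was 0.42 for Delta, -0.04 for Epsilon and -0.03 for Ugt genes, beside 0.05 over all features.

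**Figure D4:**
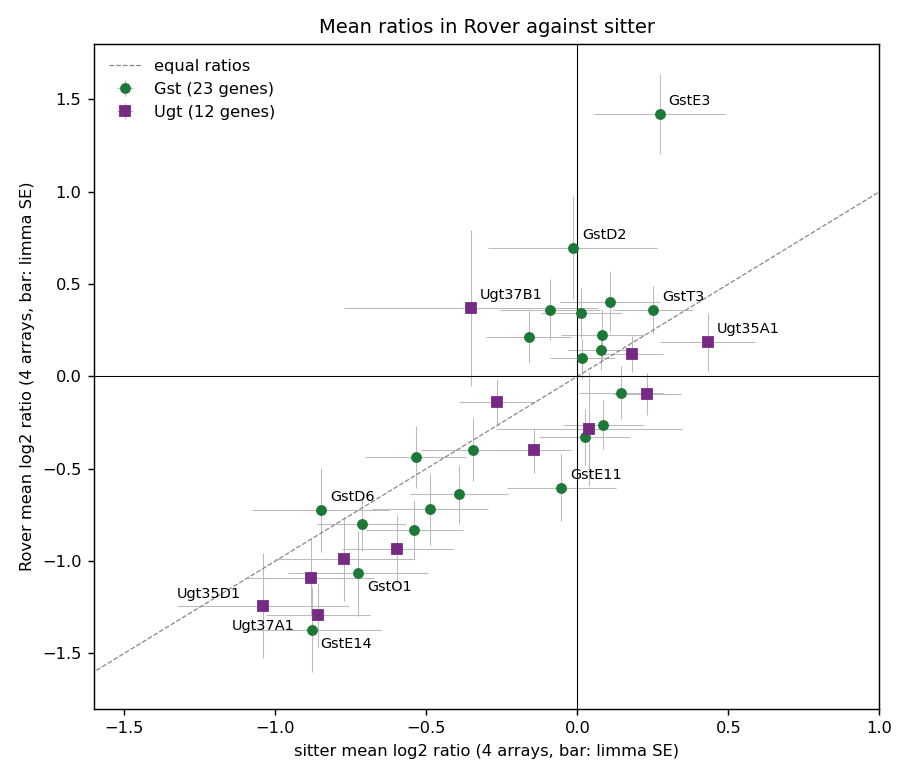
Mean log2 ratio in Rover (y axis) against sitter (x axis) for 23 Gst genes (circles) and 12 Ugt genes (squares), with bars of 1 limma standard error and a dashed line of equal ratios. GstE3, at 1.42 in Rover and 0.27 in sitter, lies farthest above the line, and GstE14, Ugt37A1 and Ugt35D1 are far negative in both.

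**Figure D5:**
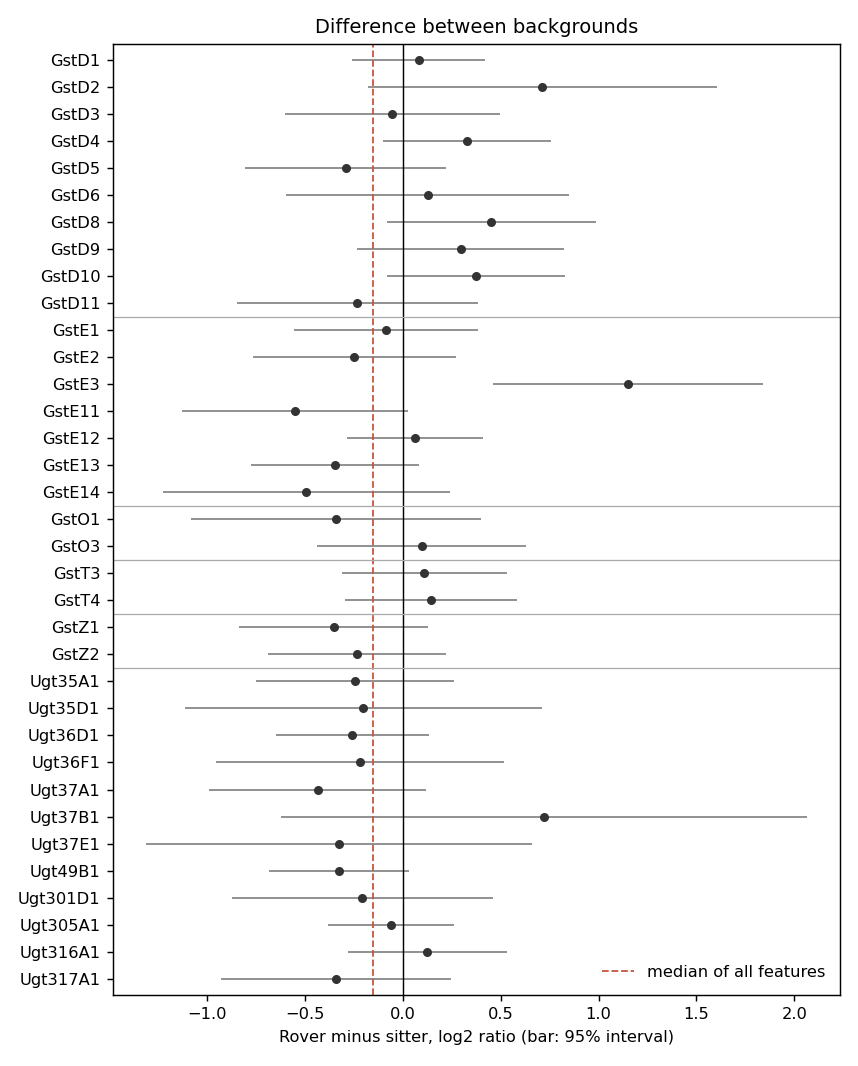
Rover minus sitter deposited log2 ratio (x axis) for each member (y axis), with its 95% interval from limma and a dashed line at -0.15, the median difference of all features. On these deposited ratios only the interval of GstE3, 0.46 to 1.84, leaves out 0.

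Members varied more between Rover arrays than between sitter arrays. The SD in Rover exceeded that in sitter for 27 of 35 members, beside 59.7% of all features, and the median SD was 0.37 in Rover and 0.26 in sitter, beside 0.33 and 0.27 over all features. In Rover the highest centred value was found on Rover 1 for 16 members, on Rover 2 for 10, on Rover 3 for 3 and on Rover 4 for 6, whereas over all features the shares were 30.4%, 18.4%, 26.8% and 24.4%. In sitter the highest value was on sitter 4 for 18 of 35 members, beside 28% of all features. Rover 1 had print lot A, the shorter hybridisation of 15.75 hours and a Cy5 gain of 67. Rover 2 shared lot B, 17.75 hours and a Cy5 gain of 64 with Rover 3 and Rover 4. From Rover 1 to Rover 4 the array medians over spots were -0.24, -0.35, -0.47 and -0.46. The median absolute deviations over spots were 0.46, 0.70, 0.76 and 0.66, and from sitter 1 to sitter 4 they were 0.31, 0.53, 0.59 and 0.34. The part of these settings and array properties in the pattern was not tested.

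The negative members were more negative where the Cy5 gain of the scan was 64 (Rover 2 to 4, sitter 2 and 3; 5 arrays) than on the 3 arrays at 67 or 68. For 10 of the 15 members called negative over both backgrounds, all 5 arrays of the lower gain lay below all 3 of the higher gain, beside 38.9% of all features called negative. The median of these 15 members was -0.97 at the lower gain and -0.33 at the higher, beside -1.01 and -0.42 for all features called negative. GstO1, for example, was at -1.28, -1.53, -1.05, -1.49 and -0.83 on the lower-gain arrays and at -0.41, -0.31 and -0.27 on the others. The part of the scanner gain in these ratios was not tested. With the lower-gain arrays alone 16 members were called in Rover and 12 in sitter, beside 45.1% and 30.7% of all features.

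The sitter calls depended on single arrays. Without sitter replicate 2, or without sitter replicate 3, limma called 0 members in sitter, with 10 at an unadjusted p under 0.05 in each case, and 24 and 22 of all 19325 features. The count was 6 without Rover replicate 2, 7 without Rover replicate 3 and 7 without sitter replicate 4, beside 20.2%, 22.8% and 20.2% of all features. With print lot as a block it was 4 (GstE1, GstE14, Ugt301D1 and Ugt37A1), beside 12.6%, and with print lot B alone it was 10, beside 26%.

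Genes that serve the same chemistry were examined in 5 lists chosen by known function, and the shares of all features called are those given above. Of 6 measured genes of glutathione synthesis and reduction, Trxr2, a mitochondrial thioredoxin reductase, was called negative in Rover at -0.59 and in sitter at -0.61 (limma adjusted p = 0.00459 and 0.0169), and 5 did not pass in either. After centring the Rover call of Trxr2 was lost (0.146) and the sitter call held (0.0402). Trxr1, which reduces oxidised glutathione through thioredoxin in flies, had means of 0.00 and -0.23 that did not pass (0.99 and 0.26). Ggt-1 (0.09 and -0.15) and Grx1t (0.01 and 0.07) did not pass either. After centring Trxr1, Ggt-1, Grx1 and Grx1t were positive in Rover.

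The 3 measured genes of UDP-sugar supply did not pass in Rover or in sitter as deposited. UGP, which makes UDP-glucose, was called over both backgrounds at -0.36 (limma adjusted p = 0.0464) and not after centring (0.598), and frc, a transporter of UDP-sugars, stood at 0.08 and Galt at -0.16. After centring frc was positive in Rover (0.0169) and over both (0.00626). Among 4 regulators of xenobiotic response the nuclear receptor gene Hr96 was called negative in Rover at -0.78 (0.00482) and not in sitter at -0.24 (0.327), a difference of -0.54 that did not pass (0.507). The Rover call of Hr96 held after centring (0.0487). Keap1, the inhibitor of the CncC factor that switches on GstD1, had means of 0.08 and -0.03 (0.56 and 0.862), and was called positive in Rover after centring (0.00927). maf-S, the partner of CncC, stood at -0.15 and 0.10, did not pass as deposited, and was positive over both after centring (0.0258). The gene ss, the fly relative of the mammalian dioxin receptor, stood at -0.31 and -0.25. It was called negative over both at -0.28 (0.0279) and not after centring (0.981).

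Efflux transporters, which export conjugates and other compounds, had negative means. Of 6 measured ABC transporter genes 5 were called negative in Rover and 3 in sitter, 0 positive in either, and after centring 3 and 1 were negative, beside the 25% and 11.5% of all features given above. Their median ratio was -0.71 in Rover and -0.44 in sitter, beside -0.39 and -0.21 over all features. Mdr65 stood at -0.98 in Rover and -0.77 in sitter (limma adjusted p = 0.00409 and 0.0251), and both calls held after centring. rdog was at -0.81 and -0.64 (0.00581 and 0.0323), and its sitter call was lost after centring (0.0615). Mrp4 was at -0.55 and -0.38 (0.00618 and 0.0499), calls that were both lost after centring (0.219 and 0.204), and Mdr50 at -1.05 and -0.24 (0.00686 and 0.515).

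Of 9 measured antioxidant enzyme genes 2 were positive in Rover, 3 negative and 4 did not pass, and in sitter 1 was negative and 8 did not pass. After centring 4 were positive in Rover and 0 negative, and in sitter 1 was negative. The peroxiredoxin gene Prx3 was called positive in Rover at 0.56 (limma adjusted p = 0.0246) and did not pass in sitter at 0.35 (0.176). Prx6c gave 1.44, 0.85, 0.45 and 0.16 in Rover and -0.63, -1.10, -1.26 and -0.97 in sitter, so that its backgrounds had opposite signs on every array. Its difference of 1.71 ± 0.28 (SE) did not pass as deposited (0.102) and passed after centring (0.0271). Sod3 (-0.48) and TrxT (-0.50) were called negative in Rover (0.0303 and 0.0213) and not in sitter, and neither Rover call held after centring (0.606 and 0.479).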

How the data were processed

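Total RNA (80 µg per labelling) on 8 cDNA arrays in 2 colours was quantified, per the labels, on a ScanArray 4000 with QuantArray version 3, adaptive method, without background subtraction. The deposited values are 1 log2 ratio per spot and array (base 2 assumed), which the authors derived from normalised data. How they normalised is not stated in the labels. Of 27648 spots, 15116 had 1 gene symbol, 102 had several and 12430 were not listed. Spots of a gene were averaged per array, and all others were kept, for 19325 features. All 35 members matched the RefSeq table by gene ID. Both backgrounds were fitted together with limma 3.58.1 in R 4.3.3 (6 residual degrees of freedom, Benjamini-Hochberg over all features, threshold 0.05). The fitting code was also run on simulated independent noise around 0 with known shifts added in Rover. That noise had no array offset, so the run does not bear on the calls against 0 in these data. Alternatives were centring on the spot median, scaling, replicate or print lot as a block, print lot B, the lower Cy5 gain, named genes, each background by itself and leaving out each array. Print lot A was Rover 1 and sitter 1, the arrays with the shorter hybridisation. Lot, hybridisation time and replicate 1 therefore cannot be told apart. In Rover, print lot B, the lower Cy5 gain and leaving out Rover 1 all kept Rover 2 to Rover 4, so they are not separate checks. Members are named as the family, related genes by smallest p. Members, lists and tests were chosen with earlier results of these data known. Spot sequences and spot brightness were not used here, and the number of arrays limits the precision.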

Additional observations from a re-analysis of the deposited data

Results flagged for a closer look

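In 4 of the 70 groups of 4 arrays (35 members in 2 backgrounds), a single array stood far from the other 3 by Dixon's test, and chance alone gives about 1 in 20 such groups. Ugt37A1 was at -0.77 on Rover 1, with the other Rover arrays between -1.50 and -1.44. Ugt37E1 was at -0.76 on sitter 1, with the others between 0.27 and 0.36. GstE3 was at 0.83 on sitter 3, with the others between 0.01 and 0.13, and GstE13 was at 0.38 on sitter 4, with the others between -0.05 and 0.01. Among the related genes, Prx6c was positive on every Rover array and negative on every sitter array, and the difference of 1.71 had a limma adjusted p of 0.102 as deposited and 0.0271 after centring.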

How the results depend on the processing

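The counts of members called in Rover (15), over both backgrounds (18) and in the difference (0) stayed within 1.5 times under each alternative run, although centring changed the split of signs. Single arrays left out gave 12 to 17 members in Rover, 14 to 18 over both and 0 in the difference (1 to 5 at an unadjusted p under 0.05 by limma). Of all features these fits called 36.7% to 46.1%, 43.7% to 49.2% and 0.031% to 0.0414%. In sitter the count of 11 went to 5 after centring on the spot or the feature median, 4 with print lot as a block, 6 for sitter by itself, 16 after centring with scaling (6 positive and 10 negative, beside 34.8% of all features) and 0 to 12 with single arrays left out. The shares of all features were 13.8% and 13.3% for the 2 centrings, 12.6% with print lot as a block and 13.7% for sitter by itself. Leaving out single arrays gave 0.114% to 26%. With the replicate number as a block, 16 members were called in Rover and 10 in sitter, while both backgrounds together gave 17 and their difference 0. The matching shares of all features were 47.8%, 30.3%, 49.2% and 0.0362%. Deviations of same-numbered arrays correlated at 0.31, 0.12, 0.06 and 0.06 across features, and 2 of 4 Rover arrays correlated best with their own number, so the numbers were not taken as pairs.

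Class medians, averaged over the arrays of a background, moved with the offset. In Rover, centring and centring with scaling gave 0.50 and 0.42 for GstD, -0.14 and -0.079 for GstE, 0.67 and 0.53 for GstT, 0.17 and 0.14 for GstZ and -0.18 and -0.13 for Ugt, and scaling gave -0.26 for GstO. In sitter they gave 0.045 and 0.042 for GstD, 0.083 and 0.085 for GstE, 0.34 and 0.43 for GstT, 0.26 and 0.33 for GstZ, and centring gave -0.13 for Ugt.

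Signs turned for some values, including calls of Ugt36D1 and GstD3. The mean of Ugt36D1 over both (-0.27, called) went to 0.0059 after centring on spots, 0.014 after scaling and 0.030 on the feature median, where its Rover mean (-0.40, called) was 0.0079. The mean of GstD10 over both, 0.025 and not called, went to -0.058 with the lower-gain arrays. With single arrays left out it ranged from -0.041 (without Rover replicate 2) to 0.082, being -0.019 without sitter replicate 4. That of GstZ2, 0.029 and not called, went to -0.027 with print lot B and -0.048 with the lower-gain arrays. With single arrays left out it ranged from -0.035 (without Rover replicate 2) to 0.10, being -0.014 without sitter replicate 1. Over both, the first spot pair of GstD1 gave -0.039 against 0.057 (not called), and that of GstD3 gave 0.098 against a called -0.37. The causes were not tested. The feature median and the spot pairs were alternatives chosen after seeing the data. Spot brightness was not used here, so the part of dim spots is unknown.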
